A study of Homo sapiens with 6 samples.

Results

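The mRNAs of 10 enzymes that carry glucose to pyruvate were examined in ORC1 RNA immunoprecipitates: HK2, GPI, PFKP, ALDOA, TPI1, GAPDH, PGK1, PGAM1, ENO1 and PKM. They were taken by gene symbol from the table of normalised counts, with 1 form of the enzyme chosen for each step of the pathway, and all 10 were found among its 23013 genes. All 10 also reached a mean of 10 normalised counts and were therefore among the 16513 genes tested. The libraries came from native RIP-seq (RNA immunoprecipitation and sequencing), in which a protein is pulled from a lysate with an antibody, without crosslinking, and the RNA that comes with it is sequenced. The protein was ORC1, the subunit of the origin recognition complex that binds chromatin where DNA replication will start. The 2 groups were 3 inputs, nuclear lysate that received no antibody, and 3 ORC1 IPs, the same kind of lysate with an anti-ORC1 antibody. Both groups came from untreated, asynchronous cells of HCT116, a line from a human colorectal cancer, grown in RPMI medium. All libraries are thus of 1 cell line, and no library of a control antibody was used here, so the RNA that an antibody and beads carry without ORC1 was not measured per gene. The study states that RNA from its control IgG was not detectable.

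Glycolysis splits glucose into pyruvate in the cytosol and returns ATP and NADH. Its mRNAs are abundant and translated in the cytoplasm, and cancer cells are known for running the pathway at a high rate even with oxygen present. GAPDH in particular is widely used as a reference or background RNA in RT-qPCR. The question put to the data was how the input level and the ORC1 IP level of these transcripts compared, step by step along the pathway.

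The GAPDH primer pair that the study used in RT-qPCR is shown first because it reads only part of what the count table sums. The forward primer lay in exon 2 of the GAPDH canonical transcript, in the 5′ UTR, at chr12:6534813-6534831 (GRCh38, plus strand). The reverse primer ran antisense across the junction of exons 2 and 3, in the coding sequence, between chr12:6534860 and chr12:6536510, and its bases from exon 3 are in capitals.
forward: agccacatcgctcagacac
reverse: GCCCAATACGACCAAATcc
Together the primers bounded a product of 66 nt, which among all GENCODE v44 transcripts was found in GAPDH only. Stretches of 50 bases in the GAPDH canonical transcript were searched for in other transcripts, in both orientations. Of them, 46.4% also occurred in transcripts of 14 other genes, among them pseudogenes and a lncRNA annotated across GAPDH on the opposite strand. That lncRNA matched 26.6% of the stretches.

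A repeat of GAA was searched for in the members because the study examined such repeats in ORC1-bound RNA. The sequence GAAGAAGAA, on the sense strand, was present in the canonical or the longest transcript of 0 of the 10 members, against 13.0% of the canonical transcripts of the 16062 tested genes matched to GENCODE v44 and 12.05% of the 9942 whose length lay within the range of the members. The nearest stretch of 12 bases to a run of GAA units matched 8 to 11 bases per member. The runs of 6 members are shown so that the closest match can be compared with those of the mRNAs whose log2 fold changes were lowest, GAPDH, TPI1 and PGAM1, with 6 bases on each side and with capitals marking the bases equal to the repeat.
ALDOA: gggcggGAAGAAGgAGAAcctgaa
HK2: ctggtgGAAGgAGAAGAggggcgg
PKM: accaggGAAGAAGAtcAAcgcctc
GAPDH: gcaagaGcAcAAGAgGAAgagaga
TPI1: gtgaggGcAGAAGAgaAAccatcc
PGAM1: attccaGtgGAAGAcGAAtgtaac
The ALDOA run, with 11 of 12 bases, lay in coding sequence in exon 9 at chr16:30069972-30069995 on the plus strand, and that of HK2, with 10, in coding sequence in exon 15 at chr2:74886537-74886560 on the plus strand. The PKM run, also with 10, lay in the 3′ UTR at chr15:72199507-72199530 on the minus strand. The runs of GAPDH (chr12:6538193-6538216), TPI1 (chr12:6870678-6870701) and PGAM1 (chr10:97432965-97432988) each matched 9 bases and lay in 3′ UTRs on the plus strand. Of the members not shown, PGK1 matched 10 bases, GPI and PFKP 9 each and ENO1 8. Their log2 fold changes were -1.04, -0.82, -0.75 and -0.86 in that order. A match or its absence describes these letters only and says nothing of binding.

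The libraries held 13703033 to 17248924 reads on genes in inputs and 25134156 to 36008733 in ORC1 IPs. Normalised counts are these reads divided by 1 size factor per library, so every level is relative to the other RNAs of its library, and a lower value of a gene cannot be told apart from higher values of others. The epithelial markers EPCAM, CDH1, KRT8, KRT18 and KRT19 were all present, whereas VIL1 was below the filter and CEACAM5 was not analysed here. Of the markers of other cell types, 3 of 8 had a row, ALB and GFAP were near 0, and COL1A1 had 232 ± 68.6 normalised counts in inputs and 563 ± 195 with ORC1 antibody (SD, n = 3), with all ORC1 IPs above all inputs (log2 fold change 1.27, limma adjusted p = 0.0854), and its part in the results was not tested. Over all genes, 376 were called higher and 234 lower in ORC1 IP by limma at an adjusted p under 0.05, and with scaling by total count 87 and 96.

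For these 10 mRNAs, 2 libraries stood apart. ORC1 IP 2 had the lowest value of all 6 libraries for 10 of 10 members, whereas it was the lowest library for 25.7% of all genes tested. Input 1 was the lowest input for 10 of 10 members, against 35% of all genes. ORC1 IP 2 also had the highest share of reads from the mitochondrial genome, 5.995%, against 0.257% to 3.28% in the other libraries, and the highest level of the nuclear RNA MALAT1, 116695 normalised counts against 10644 to 35633, and the part of these differences in the results on glycolytic mRNAs was not tested. The fold change of each member is therefore given with and without ORC1 IP 2.

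In the inputs, the enzymes differed widely in level. Per kilobase of canonical transcript, ENO1 (enolase) was highest with 46016 ± 18311 normalised counts (SD, n = 3), followed by GAPDH with 35097 ± 10947, PKM (pyruvate kinase) with 26599 ± 9040 and ALDOA (aldolase) with 21564 ± 6783. The inputs of each of these neighbours overlapped. TPI1 (triosephosphate isomerase) came next with 12215 ± 3072 per kilobase, a range that overlapped with ALDOA but lay above that of GPI (glucose-6-phosphate isomerase), whose mean was 4080 ± 1083. GPI, PFKP (the platelet form of phosphofructokinase, 4058 ± 1695) and PGK1 (phosphoglycerate kinase, 3323 ± 1162) did not separate. PGAM1 (phosphoglycerate mutase) and HK2 (hexokinase, which starts the pathway) were the lowest, at 630 ± 188 and 373 ± 245 per kilobase, with overlapping inputs. The order depends on the canonical transcript taken for each gene. On GRCh38, as for all coordinates here, the protein-coding genes not placed elsewhere lie at chr19:34359480-34402413 (GPI), chr10:3066333-3137718 (PFKP) and chrX:77910739-78129295 (PGK1) on the plus strand, and at chr1:8861000-8879190 (ENO1) and chr15:72199029-72231819 (PKM) on the minus strand.

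Members together took 0.961%, 1.64% and 1.73% of the reads on genes in inputs 1, 2 and 3, against 0.747%, 0.414% and 0.792% in the ORC1 IPs. The 95% Wilson interval of input 1 ran from 0.957% to 0.966%, those of the other libraries were as narrow, and they cover counting error only. Every ORC1 IP thus lay below every input, with means of 1.44% ± 0.419 for inputs against 0.651% ± 0.206 for ORC1 IPs (SD, n = 3). No p is given for this sum because the genes were chosen as a group.

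By gene, 9 of 10 members had a negative log2 fold change of ORC1 IP over input, where 49.3% of all genes did (50.7% were positive, as was HK2), and their median was -0.95 against 0.01 over all genes. Without ORC1 IP 2 the median of the members was -0.36 and that of all genes 0.02. PGAM1 alone passed the adjusted threshold, as lower in ORC1 IP. The background of that call was 1.42% of genes, and that of the higher call, which no member passed, 2.28%. No member was called higher at an unadjusted p under 0.05 either, where 12.2% of all genes were, nor by edgeR or DESeq2. At an unadjusted p under 0.05, TPI1 and PGAM1 were lower, a call that 9.45% of all genes had. At the threshold used by the study, a log2 fold change past 1 with an unadjusted p under 0.05, TPI1 and PGAM1 were lower (7.25% of all genes) and no member was higher (10.9%). The 3 ORC1 IPs lay below the 3 inputs for 4 members, ALDOA, TPI1, GAPDH and PGAM1 (13.5% of all genes), and above them for none (12.7%). Against the input of the same RIP replicate, 5 members were lower in 3 of 3 replicates, ALDOA, TPI1, GAPDH, PGK1 and PGAM1 (19.2% of all genes), and none was higher in all 3 (19.8%). This count rests on the replicate numbers of the labels, which the values do not bear out for replicates 1 and 2. There, paired libraries deviated from their groups in opposite directions (correlations of -0.322 and -0.240 across genes). No other pairing was computed, so whether another numbering fits better was not tested.

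**Figure D1:**
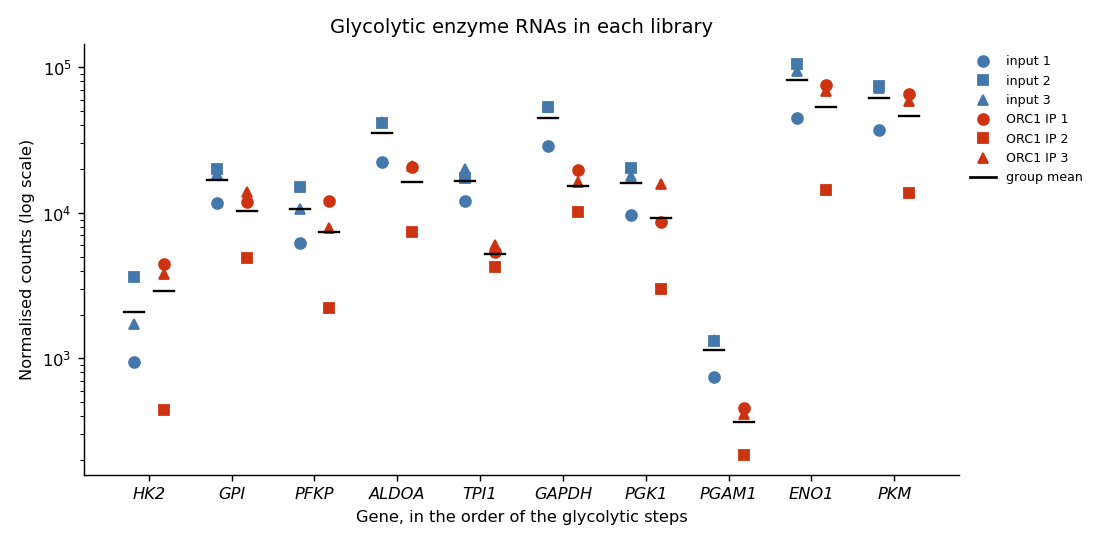
Normalised counts (log scale) of the 10 glycolytic mRNAs in the 3 inputs and the 3 ORC1 IPs, in pathway order, each point a library with its shape giving the replicate, and each line a group mean. Points of inputs 2 and 3 nearly coincide for ALDOA, GAPDH and PGAM1. The ORC1 IPs lay below all inputs for ALDOA, TPI1, GAPDH and PGAM1, and ORC1 IP 2 was the lowest library for all 10.

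The first 3 steps prepare the sugar, and none of their mRNAs passed the test. HK2, which phosphorylates glucose, lies at chr2:74834127-74893359 on the plus strand. It had 944, 3628 and 1725 normalised counts in inputs 1, 2 and 3, against 4457, 439.5 and 3814 in ORC1 IPs 1, 2 and 3. ORC1 IPs 1 and 3 were above all inputs and ORC1 IP 2 below all of them, so that the groups overlapped and the log2 fold change was 0.11 ± 0.77 (SE, limma adjusted p = 0.951). Without ORC1 IP 2 the fold change of HK2 was 1.19 (adjusted p = 0.0890), and it turned negative under 6 of the alternatives, including scaling by total count.

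GPI, which turns glucose 6-phosphate into fructose 6-phosphate, ranged from 11743 to 20105 normalised counts in inputs and from 4857 to 13994 in ORC1 IPs. PFKP, which commits the sugar to glycolysis, ranged from 6239 to 15142 in inputs and from 2212 to 11992 in ORC1 IPs. In each of these genes ORC1 IPs 1 and 3 lay within the inputs and ORC1 IP 2 lay below them. Their log2 fold changes were -0.82 ± 0.66 for GPI and -0.75 ± 0.68 for PFKP (SE, limma adjusted p = 0.508 and 0.563). Without ORC1 IP 2 they were -0.35 for GPI and -0.041 for PFKP, and without ORC1 IP 1 PFKP was at -1.26.

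The splitting of fructose 1,6-bisphosphate, the interconversion of the triose phosphates and their oxidation are the work of ALDOA, TPI1 and GAPDH, the enzymes in the middle of the pathway. ALDOA, at chr16:30064164-30070457 on the plus strand, had 22528, 41359 and 42206 normalised counts in inputs, against 20821, 7355 and 20911 in the IPs with ORC1 antibody. All ORC1 IPs were below all inputs, but ORC1 IPs 1 and 3 were only slightly below input 1, and the log2 fold change was -1.21 ± 0.81 (SE, limma adjusted p = 0.417). Without ORC1 IP 2 it was -0.70. Of the 50-base stretches of the ALDOA transcript, 89.5% are shared with a GENCODE v44 gene that overlaps it on the same strand, which was not analysed here, and whether it affected the ALDOA count was not tested.

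TPI1, at chr12:6867119-6870948 on the plus strand, had 11998, 17337 and 20173 normalised counts in inputs, against 5402, 4250 and 6036 in the IPs with ORC1 antibody. The groups were well apart, with the highest ORC1 IP below the lowest input, and in each replicate the ORC1 IP was lower, by a log2 difference of -1.15, -2.03 and -1.74. The log2 fold change of TPI1 was -1.64 ± 0.55 (SE), with an unadjusted p of 0.0105 that did not hold after adjustment (limma adjusted p = 0.107). Without ORC1 IP 2 the log2 fold change was -1.50 and the limma adjusted p 0.0163, in a fit that called 1053 of 16513 genes lower. With any other library left out instead, the limma adjusted p of TPI1 was 0.140 to 0.446.

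GAPDH, at chr12:6534512-6538374 on the plus strand, had 28857, 53243 and 53197 normalised counts in inputs, against 19724, 10064 and 16333 in the IPs with ORC1 antibody. All ORC1 IPs were below all inputs, with input 1 closest to them, and the mean went from 45099 ± 14066 to 15374 ± 4901 (SD, n = 3). The log2 fold change was -1.55 ± 0.81 (SE, 95% interval -3.31 to 0.20), which did not pass the test (limma adjusted p = 0.291). By replicate the log2 difference was -0.55, -2.40 and -1.70, and without ORC1 IP 2 the fold change was -1.27 (adjusted p = 0.0666). The limma adjusted p of GAPDH was 0.346 to 0.674 with any other library left out. DESeq2 on the recovered reads called GAPDH lower (adjusted p = 0.00619), and so did its fit with the replicate as a block (adjusted p = 0.0243), whereas edgeR did not (adjusted p = 0.208).

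The later steps return ATP, and PGK1, ENO1 and PKM had overlapping groups there. PGK1, the first step that makes ATP, ranged from 9699 to 20393 normalised counts in inputs and from 2980 to 15818 in ORC1 IPs. Its log2 fold change was -1.04 ± 0.71 (SE, limma adjusted p = 0.427), and only ORC1 IP 3 reached the inputs. The log2 fold change of PGK1 was -0.38 without ORC1 IP 2 and -1.58 without ORC1 IP 3. ENO1 had 44876, 106186 and 94805 normalised counts in inputs, against 76213, 14375 and 68837 in the IPs with ORC1 antibody. ORC1 IPs 1 and 3 of ENO1 lay between input 1 and the other inputs, and only ORC1 IP 2 was low. PKM, whose enzyme makes pyruvate, had 37320, 74897 and 71717 in inputs, against 65754, 13684 and 58621 with ORC1 antibody, the same order of libraries as ENO1. The log2 fold changes were -0.86 ± 1.21 for ENO1 and -0.64 ± 1.11 for PKM (SE, limma adjusted p = 0.732 and 0.786), and without ORC1 IP 2 they were -0.083 and 0.085. At these spreads a change in either direction by more than 2-fold lay inside both 95% intervals, -3.48 to 1.76 and -3.04 to 1.76.

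PGAM1, which moves the phosphate before enolase acts, lies at chr10:97426191-97433444 on the plus strand. It had 746, 1322 and 1340 normalised counts in inputs, against 457, 216 and 415 in the IPs with ORC1 antibody. All ORC1 IPs of PGAM1 were below all inputs, and the mean went from 1136 ± 338 to 363 ± 129 (SD, n = 3). This was a log2 difference of -1.67 ± 0.40 (SE, limma adjusted p = 0.0434). PGAM1 thus fell in ORC1 IP, close to the threshold, and the call was lost without input 2, without input 3 or without ORC1 IP 3 (adjusted p = 0.180, 0.278 and 0.0932). It was also lost when GC and transcript length were corrected for (adjusted p = 0.0729) and without the intensity trend (0.0896), with fold changes of -1.42 and -1.67 on the log2 scale. Without the trend, the limma adjusted p was 0.0674 for TPI1 and 0.0967 for GAPDH, on either side of that of PGAM1. The call with the trend thus does not set PGAM1 apart from TPI1 and GAPDH. GAPDH had a similar log2 fold change there but a larger SE (0.81 against 0.40). Without ORC1 IP 2 the log2 fold change of PGAM1 was -1.33. Of the 50-base stretches of PGAM1, 56.8% occurred, in either orientation, in transcripts of 11 other genes.

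The members did not move as 1 block in every library. Set against the mean of the 3 inputs, all 10 were low in ORC1 IP 2, within a range of 0.66 on the log2 scale and with a median of -2.14, and all 10 lay below the 10th percentile of all genes there (10% of genes by construction). In ORC1 IPs 1 and 3 the range over members was 2.88 and 2.49 and the median -0.59 and -0.29. Below the 10th percentile were then TPI1 and PGAM1 in ORC1 IP 1, and TPI1, GAPDH and PGAM1 in ORC1 IP 3.

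**Figure D2:**
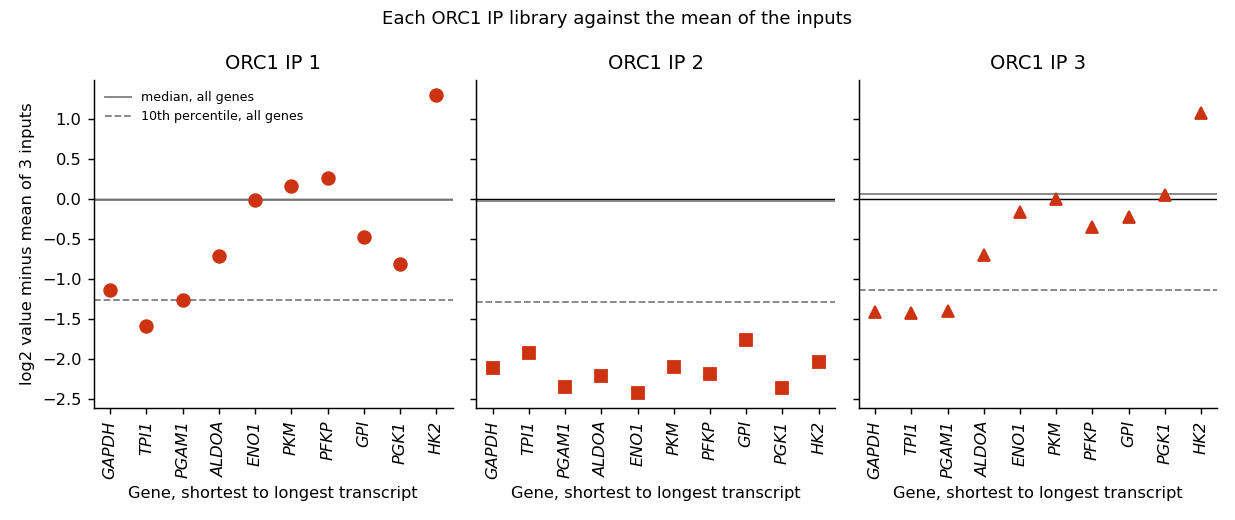
Log2 difference between each ORC1 IP and the mean of the 3 inputs, 1 panel per ORC1 IP and 1 point per mRNA, ordered from the shortest to the longest transcript, with the median (solid line) and 10th percentile (dashed line) of all genes. ORC1 IP 2 lay between -2.42 and -1.75 for all members, while ORC1 IPs 1 and 3 spread from -1.58 to 1.301.

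Ratios within a library show this without any scaling between libraries. GAPDH counts were 0.773, 0.711 and 0.742 of PKM counts in inputs 1, 2 and 3, and 0.735 in ORC1 IP 2, but 0.300 and 0.279 in ORC1 IPs 1 and 3. TPI1 to PKM was 0.231 to 0.321 in inputs and 0.311 in ORC1 IP 2, against 0.0822 and 0.103 in ORC1 IPs 1 and 3. ALDOA and PGAM1 to PKM were slightly below the inputs in ORC1 IP 2 (0.537 and 0.0158) and lower again in ORC1 IPs 1 and 3 (0.317 and 0.357, and 0.00695 and 0.00708).

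ENO1 to PKM differed less, at 1.202, 1.418 and 1.322 in inputs 1, 2 and 3 against 1.159, 1.050 and 1.174 in the ORC1 IPs, although all ORC1 IPs were below all inputs. PGK1 to PKM went another way, at 0.249 to 0.272 in inputs, 0.133 and 0.218 in ORC1 IPs 1 and 2, below the inputs, and 0.270 in ORC1 IP 3, within them. HK2 to GAPDH was 0.0324 to 0.0681 in inputs and 0.0437 in ORC1 IP 2, and was 0.226 and 0.233 in ORC1 IPs 1 and 3. In ORC1 IP 2, therefore, GAPDH to PKM, TPI1 to PKM and HK2 to GAPDH lay within the range of the inputs, while in ORC1 IPs 1 and 3 they lay outside it. Set against ENO1 instead, GAPDH was outside that range in all ORC1 IPs, at 0.700 in ORC1 IP 2, above the 0.501 to 0.643 of the inputs, and at 0.259 and 0.237 in ORC1 IPs 1 and 3, below it.

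**Figure D3:**
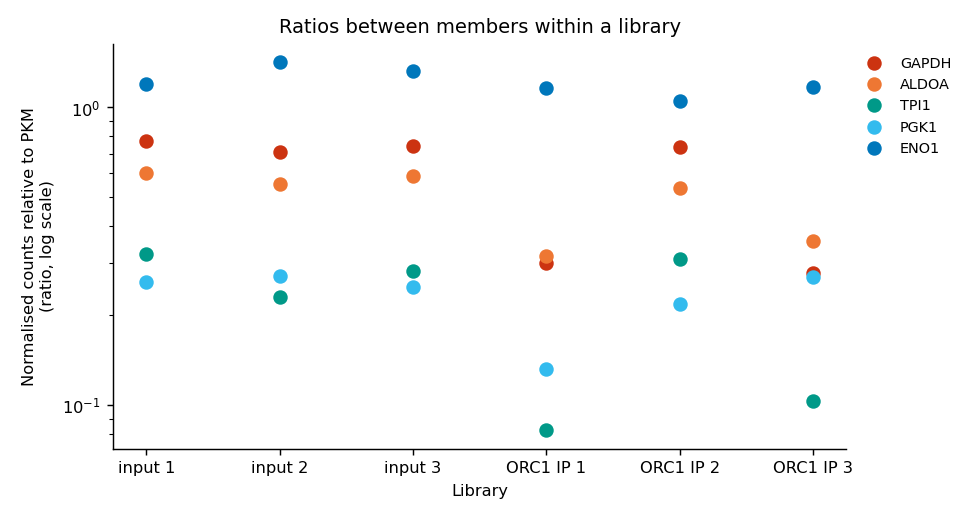
Ratio of the normalised counts of GAPDH, ALDOA, TPI1, PGK1 and ENO1 to those of PKM (log scale) in each of the 6 libraries, 1 point per gene and library. ORC1 IP 2 lay with the inputs for GAPDH, at 0.735 against 0.711 to 0.773, whereas ORC1 IPs 1 and 3 were at 0.300 and 0.279.

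The profiles of the members over the 6 libraries differed in likeness to GAPDH, which is given as a description since the libraries share the contrast of input and IP. PGAM1 (Pearson r = 0.997, n = 6 libraries), TPI1 (0.969) and ALDOA (0.943) were most like GAPDH on the log2 scale, and HK2 was least like it (0.373). PKM and ENO1 were nearly the same (0.996). Among all other 16512 genes the nearest to GAPDH were EIF3I, a translation initiation factor subunit, its pseudogene EIF3IP1 and BSG, which encodes basigin (r = 0.999 for each), and PGAM1 ranked 6.

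The fold changes were also set against transcript length, which followed likeness to GAPDH in part. By longest annotated transcript, PGAM1, TPI1 and ALDOA, the most like GAPDH, were the shortest of the other members. HK2, the least like it, was the longest. Between them the order differed, as GPI (r = 0.870) and PGK1 (0.805) were more like GAPDH than the shorter ENO1 (0.782), PFKP (0.760) and PKM (0.729). By canonical transcript, ALDOA (1640 nt) and ENO1 (1781 nt) were shorter than PGAM1 (1802 nt). The longest annotated transcripts of GAPDH, TPI1 and PGAM1 measured 1720, 1763 and 1802 nt, those of ALDOA, ENO1, PKM and PFKP 2534, 2548, 3016 and 3265 nt, and those of GPI, PGK1 and HK2 4341, 4812 and 5626 nt. Across the 10 members the Spearman correlation of the log2 fold change with this length was 0.78, and across the 16062 matched genes it was 0.34. Against the mean of the inputs it was 0.71 in ORC1 IP 1 and 0.89 in ORC1 IP 3 but 0.079 in ORC1 IP 2, and the values for all genes were 0.24, 0.43 and 0.16. With the length of the canonical transcript instead, the correlation of the log2 fold change was 0.68 for members and 0.35 for all genes. In ORC1 IPs 1, 3 and 2 it was then 0.61, 0.83 and 0.091 for members, and 0.25, 0.45 and 0.15 for all genes. These are correlations across genes, which are not independent replicates and share libraries.

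Within each length class the median of the members was below that of all genes in the fit with all libraries. The 5 members with a canonical transcript under 2000 nt had a median log2 fold change of -1.55, against -0.30 for the 5728 genes of that class. The 3 members over 4000 nt had a median of -0.82, against 0.33 for 5169 genes. The 2 between, PFKP and PKM, had a median of -0.70, against -0.03 for 5165 genes. Without ORC1 IP 2, PFKP and PKM were at -0.041 and 0.085. GPI, PGK1 and HK2, the members over 4000 nt, were then at -0.35, -0.38 and 1.19. Members under 2000 nt ran from -1.50 for TPI1 to -0.083 for ENO1. Medians of all genes by length class were not computed without ORC1 IP 2, so whether the difference holds there was not tested.

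**Figure D4:**
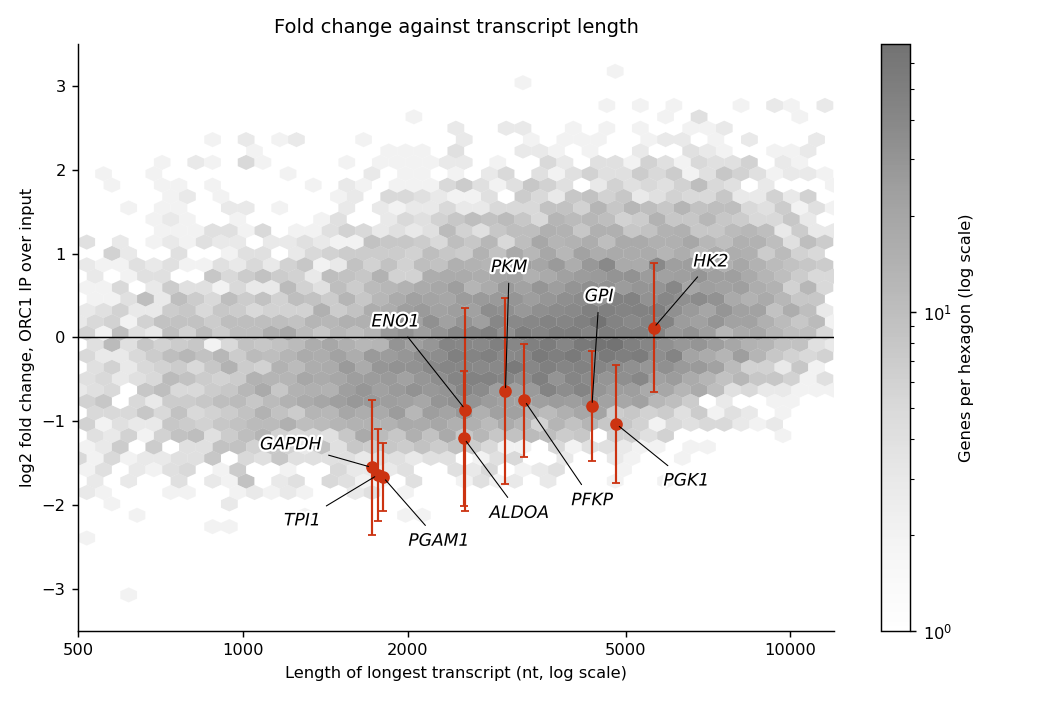
Log2 fold change of ORC1 IP over input against the length of the longest transcript (log scale) for all matched genes (grey hexagons, darker for more genes) and for the 10 mRNAs (red points, bars are SE). The 1012 genes beyond the axes are not shown, and GAPDH, TPI1 and PGAM1 lie together at the short end, between -1.67 and -1.55.

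Pseudogene copies of the members, chosen by symbol, were counted beside them because their reads cannot be told apart from those of the parent where sequences are identical. The table held 38 such copies, of which 21 were tested, 3 called lower (1.42% of all genes) and 0 higher (2.28% of all genes). The 22 copies of GAPDH together had 30.4% of the GAPDH count in inputs and 33.1% in ORC1 IPs. GAPDHP1, the most abundant of them, went from 6200.0 ± 1909 to 1984 ± 613 normalised counts (SD, n = 3). Its log2 difference was -1.64 (limma adjusted p = 0.0619), beside the -1.55 of GAPDH.

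GAPDHP72 and GAPDHP63 fell, with log2 fold changes of -2.16 and -1.86 (adjusted p = 0.0239 and 0.0287). TPI1P1 fell from 4191 to 1186 normalised counts, with a log2 fold change of -1.81 (adjusted p = 0.0302), beside the -1.64 of TPI1. The less abundant TPI1P2 was at 0.08 (limma adjusted p = 0.961). These copies are not independent evidence on the parents. Of the annotated genes that overlap a member and were tested, SPSB2 on the strand opposite TPI1 had a log2 fold change of -0.30 (adjusted p = 0.687), and ATP7A on the strand of PGK1 had 0.20 (adjusted p = 0.838).

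The rest of carbohydrate metabolism was read from lists of known enzymes. Of the other isoenzymes of the same steps, 10 were tested, none passed the test in either direction, and the median log2 fold change was -0.12, from -0.78 for PFKL, the liver phosphofructokinase, to 0.81 for ENO3, the muscle enolase. Of the genes for glucose uptake, lactate and regulation, 18 were tested and none passed, with a median of -0.44. LDHA, which turns pyruvate into lactate, had 17275 ± 5007 normalised counts in inputs against 8938 ± 4212 with ORC1 antibody (SD, n = 3), and its log2 fold change was -1.05 (adjusted p = 0.376). LDHB, the other lactate dehydrogenase tested, had 19507 ± 2028 in inputs against 19136 ± 11970 with ORC1 antibody (SD, n = 3). Its log2 fold change was -0.30 (limma adjusted p = 0.865). The lactate exporter SLC16A3 had -1.14 (adjusted p = 0.204), the related transporter SLC16A1 -0.44 (0.637), and the glucose transporter SLC2A1 -0.84 (0.341). Of the 18 genes 3 were positive, PFKFB1, a phosphofructokinase-2 isoenzyme, at 1.32 (adjusted p = 0.205, unadjusted p = 0.0402 in limma, all ORC1 IPs above all inputs), and the transcription factors HIF1A at 0.85 (0.352) and MYC at 0.52 (0.650). PFKFB1 was near the filter, at 9.5 to 11.0 normalised counts in inputs. The share of all genes was 12.2% for such an unadjusted p and 12.7% for such a separation. In the other direction, 2 of the 18 had an unadjusted p under 0.05 (9.45% of all genes), SLC16A3 among them. All ORC1 IPs lay below all inputs for 5 of the 18 (13.5%), again with SLC16A3.

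All 9 genes of the pentose phosphate pathway had a negative log2 fold change, with a median of -0.68, and none passed the test. The lowest was PRPS1, which makes phosphoribosyl pyrophosphate, at -1.39 (adjusted p = 0.0521). Of 13 genes of pyruvate import and the pyruvate dehydrogenase complex, 11 were negative and none passed, with a median of -0.49 and the lowest value in MPC2, a subunit of the pyruvate carrier, at -1.45 (adjusted p = 0.0594). Of 20 genes of the tricarboxylic acid cycle, 18 were negative, and 1 was called lower, SDHC, a membrane subunit of succinate dehydrogenase, at -1.81 (adjusted p = 0.0186). The medians of these 5 lists lay between those of the 10 members, -0.95, and of all genes, 0.01.

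**Figure D5:**
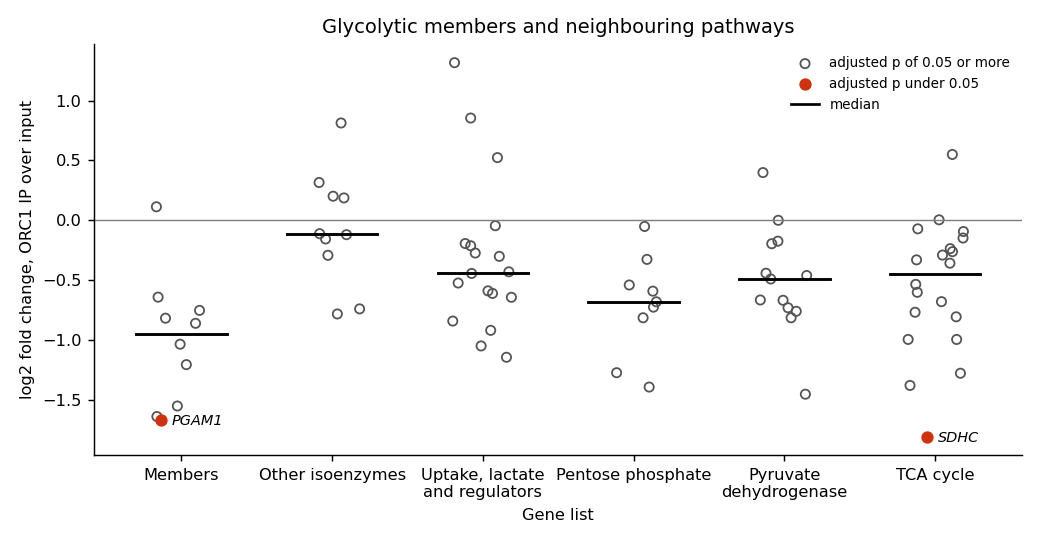
Log2 fold changes (ORC1 IP against input) for the genes tested in the 10 glycolytic mRNAs and in each list of related enzymes, with 1 point per gene, red where the limma adjusted p is under 0.05 (PGAM1 and SDHC), and a line at the median of the list. The medians run from -0.95 for the members to -0.12 for the other isoenzymes.

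The other RNAs read beside them were also without a call. HPRT1 and ORC2 had log2 fold changes of -0.21 and -0.06. The nuclear RNAs NEAT1, KCNQ1OT1 and MALAT1 had -0.63, -0.45 and 0.37.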

How the data were processed

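Nuclear RNA of HCT116 cells was sequenced as ribosome-depleted total RNA from 3 inputs and 3 ORC1 IPs. The authors used Trimmomatic for trimming, STAR for alignment to hg19 and featureCounts for reads per gene. The settings for strand and for reads that match several genes are not given in the sources used here. The deposited values are a signal made by the authors, counts divided by 1 size factor per library. The deposited table also holds the authors' fold changes and p-values, which were not used. Whole reads were recovered for 100% of the values (tolerance 0.001), and edgeR on them called 425 genes higher and 216 lower.

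Log2(normalised count + 1) was tested with limma 3.58.1 in R 4.3.3 (intensity trend, 3 libraries against 3, no block) for genes with a mean of at least 10, with Benjamini-Hochberg adjustment over 16513 genes and a threshold of 0.05. Fold changes on this scale understate changes of low genes. Alternatives used edgeR 4.0.16 and DESeq2 1.42.0 on recovered reads, other scalings, filters and pseudocounts, a GC and transcript length correction, a replicate block, and leaving out each library. Scripts were tested on simulated data. Transcripts, coordinates and lengths were those of GENCODE v44 (GRCh38) for the same Ensembl identifier, and the 2 primer sequences from the study.

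The labels give each input and ORC1 IP a RIP replicate number, which pairs them. Checked on the values, the deviations of paired libraries from the means of their groups correlated at -0.322, -0.240 and 0.215 for replicates 1, 2 and 3. The study describes the ORC1 RIP-seq as triplicate experiments and its experiments as repeated independently. The labels do not say whether the replicates came from separate cultures. Members and gene lists were chosen with earlier results of these data known. The text names all 10 members, copies by symbol, overlapping genes, and the lowest, the highest or well-known genes of each list.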

Additional observations from a re-analysis of the deposited data

How the results depend on the processing

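Over 21 alternatives, PGAM1 was called lower in 15, TPI1 in 4, GAPDH in 2 and the other members in 0, and the median log2 fold change of the members ranged from -1.34 (without ORC1 IP 3) to -0.36 (without ORC1 IP 2) when 1 library was left out. Genes called higher (376) numbered 87 with scaling by total count, 143 without the intensity trend, 1266 with DESeq2, 906 with DESeq2 and the replicate block, 131 with the correction for GC content and length, 70 with that correction and the block, and 6 to 1965 when 1 library was left out. Genes called lower (234) numbered 96, 96, 718, 484, 55 and 26 in the same order, and 23 to 1053 when 1 library was left out. At the threshold of the study, higher genes (1801) numbered 1096 with scaling by total count and 1100 to 2586 when 1 library was left out, and lower genes (1198) 752 to 1628. Lower genes at that threshold numbered 1540 with scaling by total count and 1273 without the trend. With DESeq2 they numbered 1242, and 1274 with the block. With edgeR and the block they numbered 1059, and with the correction and the block 893. These fits held 16513 genes, and 16062 with the correction. Members called lower (1) numbered 2 with scaling by total count, 0 without the trend, 3 with DESeq2 with or without the block, 0 with the correction with or without the block, and 0 to 2 when 1 library was left out. Members past the threshold of the study as lower (2) numbered 6 with scaling by total count, 4 without the trend, 4 with DESeq2 with or without the block, 1 with edgeR and the block, 1 with the correction and the block, and 1 to 3 when 1 library was left out. As higher (0) they numbered 0 to 1 then, HK2 without ORC1 IP 2. Members whose groups did not overlap numbered 4 to 8 as lower and 0 to 1 as higher when 1 library was left out, and the 8 were without input 1. Input 1 was the lowest input for all members. Groups separate more easily with fewer libraries, and the share of all genes was not computed for these settings, so these counts have no background. The log2 fold change of HK2 reversed to -0.10 with scaling by total count, to -0.037 with the correction, with or without the block, and lay between -0.48 and 1.19 when 1 library was left out (-0.36 without input 1, -0.48 without ORC1 IP 1, -0.37 without ORC1 IP 3). That of PKM lay between -1.05 and 0.085, reversed without ORC1 IP 2. With the replicate block in limma, PGAM1 stayed called and no member's call changed. Scaling by total count moved the median of all genes from 0.01 to -0.19. The cause of these shifts was not tested. The lowest count of a member in a library was 372 reads, and the SE of the members' log2 fold changes were 0.40 to 1.21.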
